A study of Mus musculus with 32 samples.

Results

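Integrins and laminins are the receptors and the ligands by which cells hold to the extracellular matrix. They were followed across liver cells and tumors of a mouse model of colorectal cancer (CRC) liver metastasis. The members were chosen by name alone, as the array's genes called Itga or Itgb with a number or a single letter, and Lama, Lamb or Lamc with a number. This gave 36 genes of the 20183 protein-coding genes that had a probe, namely 17 integrin alpha chains, 8 integrin beta chains and 11 laminin chains. They were read by 50 probes, with 1 probe for 24 genes and more for 12 genes, and each gene was represented by its most variable probe across the samples, called its main probe.

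Endothelial, Ito and Kupffer cells came from the livers of male Balb/c mice of 6 to 8 weeks. The mice had received syngeneic C26 colon carcinoma cells into the spleen (tumor microenvironment, TME: ET, IT and KT) or PBS (control: EC, IC and KC), and the text of the study places isolation 14 days later. The cells were separated by collagenase perfusion, Percoll gradients and adherence, and were cultured for at most a day. The remaining groups are tumor liver metastasis cells (TM) and CRC primary cells (TP). Each of the 8 groups held 4 samples, and each of the 16 two-colour Agilent arrays carried 2 samples. All control and TM samples carried the dye Cy3 and all TME and TP samples Cy5, so a dye effect cannot be told apart from that of the TME, nor from the step from TM to TP. Endothelial and Ito cells lay on slide 1, and Kupffer cells and tumors on slide 2. Comparisons were therefore made within a slide, and that of Ito with endothelial cells and that of tumors with Kupffer cells hold both dyes on either side. The model rests on a single tumor line, and the sources do not say how the tumor samples were isolated.

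An integrin is a pair of an alpha and a beta chain that spans the membrane, binds matrix or another cell outside and is tied to actin inside through talin, kindlin and the integrin-linked kinase complex. The beta 1 chain pairs with many alpha chains, among them those for collagen (alpha 1, 2, 10 and 11) and for laminin (alpha 3, 6 and 7). The beta 2 chain, with alpha L, M, X or D, belongs to leukocytes. The pair of alpha 6 and beta 4 holds epithelial cells to laminin in hemidesmosomes. Laminins are cross-shaped trimers of an alpha, a beta and a gamma chain and form the sheet of basement membranes, which the wall of the liver sinusoid largely lacks.

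The labels were only partly borne out by marker genes. All 8 endothelial markers, among them Cdh5, Kdr and Stab2, were detected well above background by every array of the endothelial, Ito and Kupffer groups alike, as did all 9 macrophage markers, among them Clec4f and Cd68. The summed level of the macrophage list, on the log2 scale, was 15.30 to 15.91 in EC, 16.44 to 18.74 in IC and 16.34 to 19.06 in KC. The summed list of stellate markers, those of Ito cells, was lower in control Ito than in control endothelial fractions, at 11.13 to 12.40 in IC against 13.13 to 13.45 in EC. Lrat, the retinol-storing enzyme of Ito cells, was near background, with means of 4.16 in IC and 3.47 in EC, where 2 and 1 of 4 samples were well above background. Hepatocyte markers were highest in the Ito fraction, at 16.87 to 18.29 in IC and 17.05 to 18.02 in IT, against 13.53 to 15.05 across EC and ET. Cdh5, Kdr, Stab2, Clec4f and Alb were well above background in 0 of 8 tumor samples, which had the intestinal keratin Krt20 at mean levels of 11.94 in TM and 11.45 in TP, while Epcam, Cdh1 and Cdx2 were not well above background. In bulk samples, fewer cells of a type and less RNA per cell cannot be told apart, and each level below is that of the labelled fraction as a whole.

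Some samples stood apart. On Ito array 4 the difference between TME and control over the 17105 probes detected in all samples correlated at -0.66 with the mean of the other arrays, and on Kupffer array 4 at -0.60, whereas the other Ito and Kupffer arrays gave 0.19 to 0.47 and endothelial arrays 0.51 to 0.78. The differences between TP and TM correlated so at 0.64 on arrays 2 and 3, and at -0.20 and -0.07 on arrays 1 and 4. The direction was kept because the labels name the dyes, and whether samples were exchanged on array 4 of the Ito and Kupffer cells was not tested. The means behind the comparisons of Ito with endothelial cells and of tumors with Kupffer cells hold both samples of each array, so an exchange would leave them as they are. TME Ito replicate 2 had a summed epithelial marker level of 17.23 against 12.19 to 12.34 in its group. Krt18, at 16.84, and Krt8, at 15.13, carried that sum. Of the 4 IT samples Epcam and Cdx2 were well above background in 0, Krt20 in 1 (at most 6.65) and Cdh1 in 3 (at most 6.34). The stellate list level of TME Ito replicate 2 was the highest of the group (13.97 against 11.19 to 12.40). Its macrophage and endothelial list levels were the lowest, at 14.65 against 16.61 to 18.47 and 15.86 against 17.23 to 17.40. Control Kupffer replicate 3 had a macrophage list level of 16.34, against 17.43 to 19.06 in the other 3. TM replicates 2 and 3 had stellate list levels of 11.06 and 10.93, against 13.98 and 14.43 in replicates 1 and 4 and 13.60 to 14.08 in TP. Between 38.4 and 57.1% of spots were well above background per sample, and no spot was saturated.

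The probe decides what is read for genes with several transcripts, so the probes of both genes whose probes ran in opposite directions are shown first, with coordinates of the mouse build mm9. Itga6, the laminin-binding alpha 6 chain, had a probe on its RefSeq transcript at chr2:71694756-71694815 and another on an Ensembl transcript at chr2:71690633-71690692, both on the plus strand. The start of each is given.
Itga6 RefSeq probe: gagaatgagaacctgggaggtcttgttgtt
Itga6 Ensembl probe: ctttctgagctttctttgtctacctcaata
Itgam, the alpha M chain of the macrophage and neutrophil integrin Mac-1, had probes at chr7:135260275-135260334, chr7:135212140-135212199 and chr7:135261755-135261814, on the plus strand. Capitals in the last, of which only the start is shown, mark a run of 20 bases that repeats C and A.
Itgam main probe: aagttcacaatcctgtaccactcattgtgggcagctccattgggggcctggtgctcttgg
Itgam upstream probe: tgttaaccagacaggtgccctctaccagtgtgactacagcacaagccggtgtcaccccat
Itgam repeat probe: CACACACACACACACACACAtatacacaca

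With tumors set against Kupffer cells, the RefSeq probe of Itga6 was higher by 1.40 (log2, SE 0.31, limma adjusted p = 0.00036) and the Ensembl probe lower, at -2.19 (SE 0.16, limma adjusted p = 1.8e-12). Every level and difference here is on the log2 scale of the deposited, quantile-normalized table. The RefSeq probe also fell from endothelial to Ito cells by 2.55, while the Ensembl probe differed by 0.42 there and was not called. For Itgam, the main and upstream probes were lower in tumors, at -4.63 and -1.72, and the repeat probe was higher, at 1.24, with limma adjusted p = 4.5e-13, 5.6e-08 and 0.00018. The repeat probe read 9.39 to 12.64 in every group, without the step between Kupffer cells and tumors that the main probe showed. Directions given below for Itga6 and Itgam are those of the main probe (for Itga6 the RefSeq probe), which the Ensembl probe of Itga6 and the repeat probe of Itgam oppose.

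**Figure D1:**
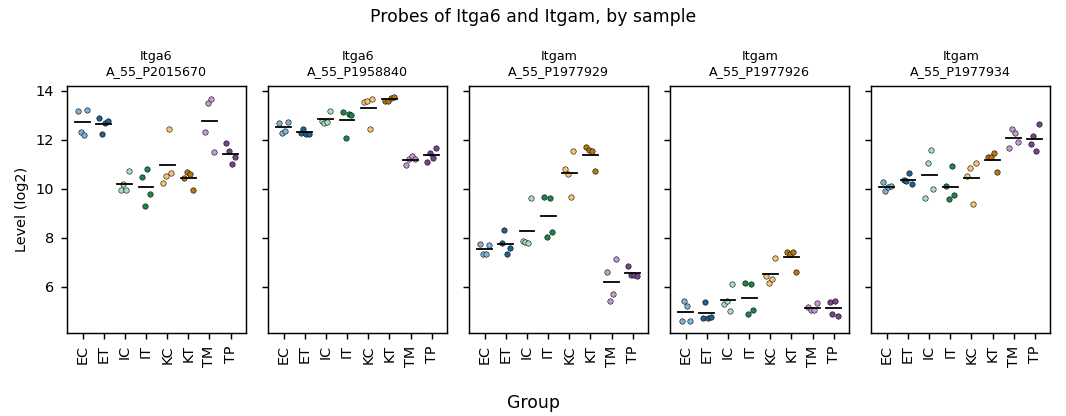
Levels (log2) of the 2 Itga6 probes and the 3 Itgam probes in the 8 groups, each point a sample and each line a group mean. The first and second probe of Itga6 order tumors (TM, TP) and Kupffer cells (KC, KT) in opposite ways, and the last Itgam probe lies at 9.39 or above in all samples.

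The array holds Itgam, Itgax and Itgad side by side on chromosome 7, at 135260275, 135294052 and 135348901 in mm9, and Itgal further off at 134477064. The promoters of Itgam and Itgax, the dendritic cell and macrophage alpha X chain, are shown because both genes were high in Kupffer cells and low in tumors. They are the 250 bases before the start, from RefSeq on GRCm38.p6, at chr7:128062390-128062639 and chr7:128129300-128129549 on the plus strand. Capitals mark GAGGAA or its reverse complement TTCCTC, the core that the myeloid factor PU.1 is known to prefer.
Itgam promoter: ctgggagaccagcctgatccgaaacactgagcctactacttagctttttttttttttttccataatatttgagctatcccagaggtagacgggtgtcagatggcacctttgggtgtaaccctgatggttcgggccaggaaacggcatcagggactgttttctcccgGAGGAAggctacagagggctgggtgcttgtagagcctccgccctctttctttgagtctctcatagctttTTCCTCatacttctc
Itgax promoter: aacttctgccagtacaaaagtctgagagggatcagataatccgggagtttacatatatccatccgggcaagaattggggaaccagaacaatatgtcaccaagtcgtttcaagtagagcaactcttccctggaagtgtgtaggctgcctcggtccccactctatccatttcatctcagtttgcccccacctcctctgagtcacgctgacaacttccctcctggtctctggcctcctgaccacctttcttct
The Itgam window held 2 matches, which begin 15 and 84 bases before the start, and the Itgax window held 0. Of the 32851 promoters in the table, 23.3% held a match on either strand. The table held 22 of the 36 members, and 12 of them had a match. A match of letters is a description and no binding was measured.

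Of the 36 members, 13 were well above background in all 32 samples, and Itgad, the alpha D chain of macrophages, in none. In endothelial cells 27 members were well above background in all 8 samples, in Ito cells 24, in Kupffer cells 23 and in tumors 16. Detection over all spots was also lowest in tumors, with group medians of 46.2% in TM and 43.4% in TP. It was 54.5% in EC, 53.1% in ET, 52% in IC, 46.6% in IT, 52.4% in KC and 50.1% in KT. The same count over all genes is not given, so the member counts were not compared with it. In tumors 13 members were not well above background in any sample by their main probe, of which Itgal had another probe that was well above background in 5 of 8 samples. These were the collagen receptors Itga1, Itga2 and Itga11, the fibroblast chain Itga8, the leukocyte chains Itgad, Itgae and Itgal, the chains Itgb6 and Itgb8 of receptors that activate TGF-beta, and the laminin chains Lama1, Lama2, Lama4 and Lamb3. Itgb1, the common partner, read 11.44 to 13.06 across all 32 samples. A filter that requires all 4 arrays of some group well above background kept 29 of the 36 genes.

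**Figure D2:**
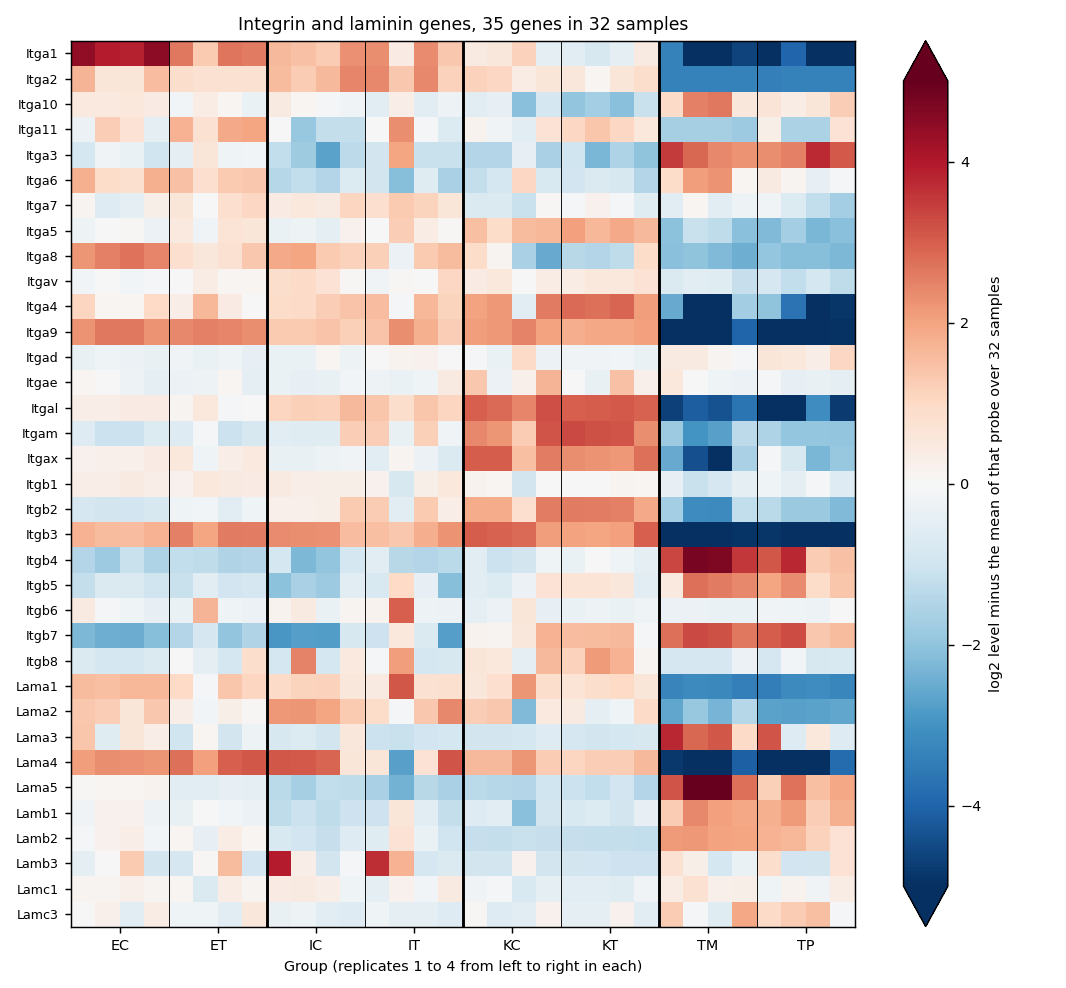
Level of each of 35 genes in each of the 32 samples as log2 difference from that probe's mean over all samples, with colours capped at -5 and 5, so rows show the pattern of a gene and not its abundance. The tumor columns (TM, TP) part from the 3 liver cell types for most rows, and IC replicate 4 and IT replicate 4 are nearer to the other group for Itgb7 and Lama4.

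The largest differences lay between tumors and Kupffer cells, 8 samples of each. In tumors the leukocyte chains Itgal, Itgam, Itgax and Itgb2, the platelet chain Itgb3 and the vessel laminin Lama4 were lower, and the epithelial laminin receptors Itga3 and Itgb4 and the laminin chains Lama5, Lamb1 and Lamb2 were higher. A member was called at a limma adjusted p under 0.05, and 14 of 36 genes (38.9%) were called higher and 19 (52.8%) lower. Over all protein-coding genes 34.9% were called higher and 27.8% lower, so a difference as such was common. The median difference of the members was -0.60, beside 0.10 over all genes. Of the 33 called genes, Itgad was not well above background on either side and has no measured difference. Itga7, Itgb6 and Lamb3 were not called.

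Among the alpha chains, those for collagen and for the RGD motif of fibronectin and vitronectin were mostly lower in tumors. Of the 4 collagen chains 3 were lower and Itga10 was higher, at 2.55 (SE 0.27, limma adjusted p = 3.7e-09). Itga1 and Itga2 were not well above background in the tumors and at least 3.36-fold and at least 1.67-fold higher in Kupffer cells. Such bounds compare the brighter side's mean with the weakest signal that passes as well above background in each dim sample, after loess and Aquantile scaling. All 3 RGD chains were lower, from -1.33 for Itgav to -3.47 for Itga5, the fibronectin receptor, but the second probe of Itgav differed by -0.27 and was not called. Itga5 was measured in every sample, at 9.93 to 11.08 in Kupffer cells and 6.72 to 7.90 in tumors, with no overlap.

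Of the laminin-binding alpha chains, Itga3 and the main probe of Itga6 were higher in tumors. Itga3, which binds laminins of epithelia, read 8.93, 8.32, 7.86 and 7.70 in TM and 7.79, 7.96, 9.18 and 8.51 in TP. In Kupffer cells it read 3.15 to 5.06 and was well above background in 3 of 8 samples. The groups did not overlap, and the difference was 4.31 (SE 0.36, limma adjusted p = 5e-11).

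Both Itga4 and Itga9, whose products bind fibronectin, VCAM-1 and related ligands, were much lower in tumors. Itga9 read 11.55 to 12.18 in all 8 Kupffer samples. In TM it read 3.40, 2.57, 2.39 and 5.71 and in TP 4.69, 3.19, 3.08 and 4.76, with 1 of 8 samples well above background. The difference was -8.06 (SE 0.32, limma adjusted p = 9.9e-18), or -5.26 after normexp background correction with loess and Aquantile scaling. Itga4 differed by -5.88, with 2 of 8 tumor samples well above background.

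The leukocyte chains Itgal, Itgam, Itgax and Itgb2 were higher in Kupffer cells than in tumors, whereas Itgae was well above background in 1 of 8 Kupffer samples and Itgad in 0. Itgal, the alpha L chain of LFA-1, read 10.08 to 10.85 in the 8 Kupffer samples. No tumor sample was well above background for this probe (2.36 to 4.53), and Kupffer cells exceeded tumors at least 17.5-fold (limma adjusted p = 1.5e-20). Another Itgal probe was well above background in 5 of 8 tumor samples and differed by -5.15 (SE 0.23). Itgb2, the common beta 2 chain, read 12.14 to 13.89 in Kupffer cells and 8.09 to 10.07 in tumors, all of them well above background. Its difference was -4.15 (SE 0.29, limma adjusted p = 9.4e-13), and the groups did not overlap. Itgax differed by -4.86 (SE 0.39) and the main probe of Itgam by -4.63 (SE 0.31), and neither overlapped. The pan-leukocyte marker Ptprc moved with these genes, at 10.64 to 12.74 in Kupffer cells and 2.55 to 6.54 in tumors, and its part in the result was not tested.

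Among the beta chains, Itgb3, the partner of alpha v and of the platelet alpha IIb chain, showed the largest difference of any member. It read 13.79, 13.71, 13.61 and 12.84 in KC and 12.78, 12.74, 12.80 and 13.74 in KT. In TM it read 4.57, 1.85, 1.84 and 5.87 and in TP 5.89, 5.78, 4.44 and 4.32, with 3 of 8 well above background. The difference was -8.93 (SE 0.41, limma adjusted p = 1.3e-16), or -6.86 after normexp, loess and Aquantile. Itgb4, the hemidesmosome chain, went the other way. It read 9.59, 10.99, 10.90 and 9.76 in TM and 9.36, 10.02, 7.51 and 7.71 in TP, against 5.18 to 6.26 in Kupffer cells, and differed by 3.70 (SE 0.30, limma adjusted p = 2.4e-11). Itgb5 and Itgb7 were higher by 1.78 and 1.73 with overlapping groups. Itgb1 differed by -0.49 (SE 0.16, limma adjusted p = 0.012), with overlapping groups, and its second probe by -0.10, which was not called. Without replicate 2 its adjusted p was 0.059 and without replicate 4 it was 0.072.

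Itgb7 pairs with alpha 4 or alpha E to home lymphocytes to the gut. Named here after its values were seen, it read 11.99 to 13.93 in tumors, while Itga4 was well above background in 2 of 8 tumor samples and Itgae in 0. The summed level of the lymphocyte list was 9.37 to 10.08 in tumors and 9.38 to 11.30 in Kupffer cells, and of its genes Cd3e was well above background in all 8 tumor samples, at 9.26 to 9.93. Its part in the result was not tested.

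The laminin chains divided by type. Lama5, Lamb1 and Lamc1 together form a laminin of many epithelial basement membranes, and all were higher in tumors, by 4.25, 2.69 and 0.66. Lama5 read 11.68, 14.03, 13.76 and 11.28 in TM, 9.73, 11.25, 10.03 and 10.47 in TP and 7.05 to 7.57 in Kupffer cells. The groups were far apart (SE 0.28, limma adjusted p = 4.8e-13). Lamb2 was higher by 2.87 (SE 0.17).

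Lama3 and Lamb3 are laminin chains of epithelia. The main probe of Lama3 was well above background in 4 of 8 tumor samples and 0 of 8 Kupffer samples, at least 1.51-fold higher. Its second probe was well above background in all of them and higher by 0.84 (SE 0.10). Lamb3 was well above background in 0 of 8 tumor samples and was not called.

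Lama4, the alpha chain of vessel walls, read 9.88, 9.86, 10.45 and 9.52 in KC and 9.33, 9.48, 9.46 and 9.85 in KT. It was not well above background in any tumor sample (2.11 to 4.40) and Kupffer cells exceeded tumors at least 10.8-fold (limma adjusted p = 1.3e-11). Lama1 and Lama2 were likewise not well above background in tumors, and were at least 1.78-fold and at least 1.25-fold higher in Kupffer cells, of which 6 of 8 samples measured Lama2. Of the endothelial markers, 6 of 8 were not well above background in any tumor sample, and their part in the result was not tested.

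**Figure D3:**
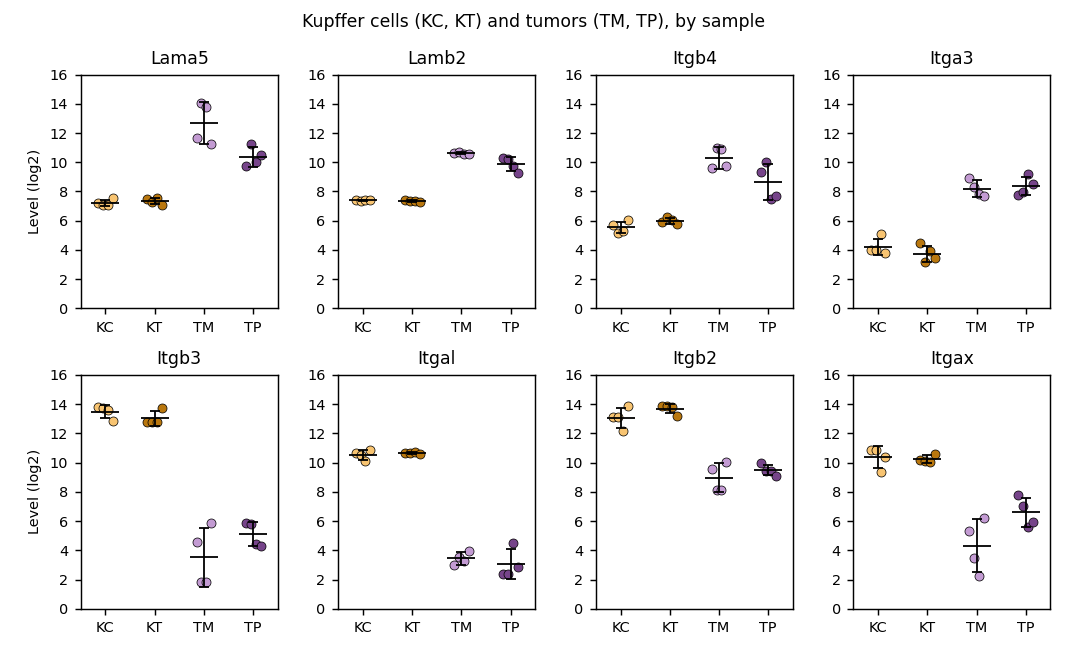
Level (log2) of 8 genes in each control (KC) and TME (KT) Kupffer sample and each TM and TP tumor sample, with the group mean and SD (n = 4). Lama5, Lamb2, Itgb4 and Itga3 lie higher in all tumor samples, and Itgb3, Itgal, Itgb2 and Itgax lie lower in all of them.

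Ito and endothelial cells, 8 samples of each, differed in fewer members and by less. Endothelial fractions were higher for the basement membrane receptor Itga6, for Itga1 and for Lama5, and Ito fractions for the leukocyte chains Itgb2, Itgal and Itgam. In all, 5 of 36 members (13.9%) were called higher in Ito cells, beside 9.62% of all genes, and 7 (19.4%) lower, beside 15.1%. These shares were near the background. The called genes higher in Ito cells were Itga2, Itgal, Itgam, Itgav and Itgb2, and the lower ones Itga1, Itga6, Itga9, Itga11, Lama5, Lamb1 and Lamb2. Without array 4 of the Ito and Kupffer cells the same 5 were higher, beside 9.19% of all genes, and 4 were lower, beside 14.3%, since Itga9, Itga11 and Lamb1 were no longer called.

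Itga6 by its main probe read 13.19, 12.33, 12.21 and 13.20 in EC and 12.88, 12.24, 12.70 and 12.76 in ET. In IC it read 9.97, 10.18, 9.94 and 10.71 and in IT 10.48, 9.29, 10.80 and 9.79. No Ito sample reached the lowest endothelial sample, and the difference was -2.55 (SE 0.31, limma adjusted p = 9.3e-07). Lama5 did not overlap either, with 7.95 to 8.72 in endothelial and 6.15 to 7.28 in Ito cells, a difference of -1.37 (SE 0.28, limma adjusted p = 0.00089). Itga1, a receptor for collagen IV and laminin, read 11.88, 11.37, 11.29 and 11.93 in EC, 10.07, 8.77, 10.12 and 10.05 in ET, 8.72 to 9.73 in IC and 7.86 to 9.81 in IT. The difference of -1.61 (SE 0.34, limma adjusted p = 0.0011) came with overlapping groups, since ET replicate 2 lay within the range of the Ito cells. A second Itga1 probe differed by -0.64 (SE 0.42, limma adjusted p = 0.345) and was not called. Itga11 differed by -1.28 (SE 0.39, limma adjusted p = 0.022) but was well above background in 1 of 8 Ito samples, and its adjusted p ranged from 0.0064 to 0.202 over the alternatives.

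Itgb2 read 10.44, 10.37, 10.32 and 10.47 in EC and 11.07, 11.14, 10.78 and 11.06 in ET. In IC it read 11.55, 11.56, 11.60 and 12.58 and in IT 12.57, 10.74, 12.61 and 11.63. All Ito samples except IT replicate 2 lay above every endothelial sample, and the difference was 1.15 (SE 0.29, limma adjusted p = 0.005). Without replicate 1 the adjusted p was 0.058. Itgal did not overlap, with 7.53 to 8.15 in endothelial and 8.50 to 9.25 in Ito cells, a difference of 0.97 (SE 0.21, limma adjusted p = 0.0016). Itgam by its main probe differed by 0.93 (SE 0.31, limma adjusted p = 0.035), which rose to 0.16 without replicate 1, 0.184 without replicate 3 and 0.055 without replicate 4. Itga2 differed by 0.83 (SE 0.20, limma adjusted p = 0.0032, and 0.079 without replicate 3). The macrophage list rose with these genes, as given above, and Ptprc read 8.81 to 10.16 in endothelial and 8.93 to 11.85 in Ito cells. The lowest Ptprc and Itgb2 values of the Ito fraction were both those of IT replicate 2, and the part of macrophages in the result was not tested.

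**Figure D4:**
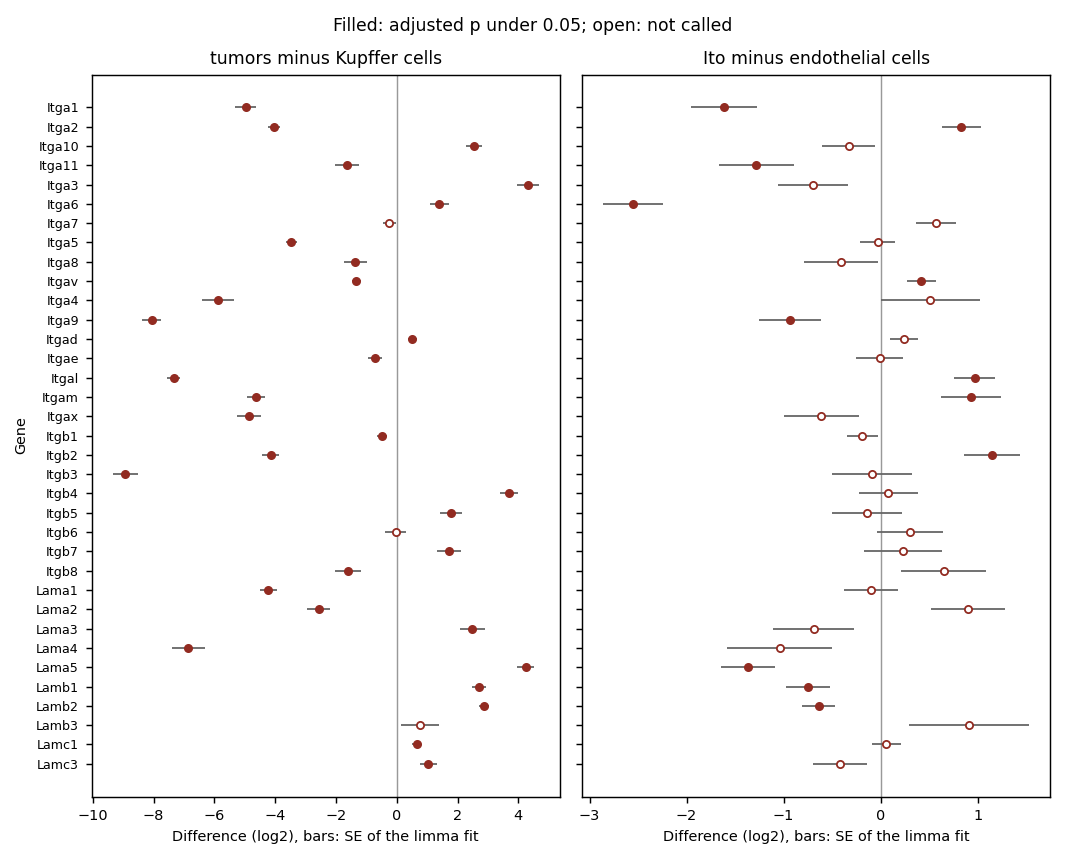
Difference (log2) of tumors minus Kupffer cells and of Ito minus endothelial cells for 35 genes, by the main probe, with the standard error of the limma fit and filled points for genes called. Differences plotted reach -8.93 (Itgb3) and 4.31 (Itga3) in the first comparison and -2.55 (Itga6) and 1.15 (Itgb2) in the second.

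CRC primary cells (TP) and tumor liver metastasis cells (TM) differed in 3 members, over arrays of which 1 and 4 did not run with 2 and 3, as given above. Itgax was higher in TP, and Lama5 and Itgb4 were higher in TM. Of the 36 genes 2.78% were called higher in TP, beside 1.92% of all genes, and 5.56% lower, beside 0.917%. Lama5 was the only called gene whose groups did not overlap, with 9.73 to 11.25 in TP and 11.28 to 14.03 in TM. Its difference was -2.32 (SE 0.40, limma adjusted p = 0.00093; exact permutation p = 0.0286, the smallest that 4 against 4 samples allow). Without replicate 3 the adjusted p was 0.081.

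Itgb4 was lower in TP on all 4 arrays, at -1.66 (SE 0.42, limma adjusted p = 0.029; exact permutation p = 0.114), and its adjusted p was 0.472 without replicate 3 and 0.108 without replicate 4. Itgax read 7.77, 7.04, 5.58 and 5.95 in TP and 5.33, 3.45, 2.21 and 6.22 in TM. It was well above background in 3 of 4 and 2 of 4 samples, and differed by 2.28 (SE 0.55, limma adjusted p = 0.02; exact permutation p = 0.114). Its adjusted p was 0.066, 0.29 and 0.083 without replicates 1, 2 and 3 in turn. Itgax was also not called with either normexp setting. With only TM and TP in the fit, 0 of the 36 members were called, beside 0.441% of all genes, and 6 passed the unadjusted limma p under 0.05. Counts by the unadjusted p, here and below, have no share of all genes beside them. They are therefore not read as a result about the members. TM replicates 2 and 3 had the highest Lama5 and Itgb4 and the lowest Itgax of their group. The differences of Itgb4 on arrays 1 to 4 were -0.23, -0.97, -3.39 and -2.05, with the lowest values in TP replicates 3 and 4. They were also the TM samples with the lowest stellate list level and the lowest Ptprc (4.92 and 3.80, against 6.09 and 6.54), and the part of stroma or leukocytes in the result was not tested.

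TME and control endothelial cells differed in 0 called members, where 1.63% of all genes were called. By the unadjusted limma p under 0.05, 4 members passed, namely Itga1, Itga7, Itga8 and Itga11. Itga1 came nearest to a call. Its ET values, given above, lay below every EC value, at -1.81, -2.61, -1.17 and -1.88 on arrays 1 to 4, with a mean difference of -1.87 (SE 0.48, limma adjusted p = 0.054; exact permutation p = 0.0286). It was called after normexp correction, after 75th percentile scaling, with the filter on dim probes, with the array as a block, with the endothelial groups alone and without array 4 of the Ito and Kupffer cells. It was not called with any 1 replicate number left out or with the methods' t-test. Nor was it called from the scanner's processed signals after quantile normalization, or once the difference between TP and TM was subtracted. Itga8, whose integrin binds nephronectin, read 6.96, 7.30, 7.47 and 7.19 in EC and 5.61, 5.32, 5.52 and 6.10 in ET, also without overlap (difference -1.59, SE 0.53, limma adjusted p = 0.225; exact permutation p = 0.0286).

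The groups of TME and control endothelial cells did not overlap for 10 of the 36 members, beside 18.1% of all genes. Itgb2 was one of them, higher in ET by 0.63, 0.77, 0.46 and 0.59 on arrays 1 to 4. Fitting the endothelial groups alone called 6 members, beside 7.41% of all genes, with Itgb2 and Itgb3 higher and Itga1, Itga8, Lama2 and Lama5 lower. The neutrophil list rose from 9.23 to 10.04 in EC to 11.75 to 12.96 in ET, and the macrophage list from 15.30 to 15.91 to 16.03 to 16.65. All macrophage genes had higher means in ET except Timd4 (9.44 in EC, 8.05 in ET) and Clec4f (12.81 and 12.74). The platelet list rose from 13.38 to 13.62 to 14.19 to 14.50, with its brightest gene Pf4 at means of 13.50 and 14.28. Within it the beta 3 partner Itga2b had means of 6.16 and 6.97, and Ppbp of 6.64 and 6.71. Gp9 and Gp1bb were well above background in at most 1 of 4 samples of either group. The endothelial list read 16.03 to 16.15 in EC and 16.05 to 16.40 in ET, where its brightest gene Mcam rose from a mean of 14.72 to 15.60. Stab2 was also higher in ET (11.01 and 11.65). Kdr had means of 12.67 in EC and 11.33 in ET and Clec4g of 13.14 and 11.41, and Pecam1, Cdh5, Tek and Lyve1 were lower in ET by less. The hepatocyte list was 13.65, 15.05, 13.53 and 13.56 in ET and 14.82 or more in every EC sample. The part of these lists in the result was not tested.

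TME and control Ito cells differed in 0 called members, beside 0.243% of all genes, and 7 members passed the unadjusted limma p under 0.05. Array 4 opposed the rest. Lama4 read 11.37, 11.31, 11.17 and 8.84 in IC and 8.85, 5.52, 8.97 and 11.39 in IT. The fourth control value lay with the TME values, and the fourth TME value with the controls. Itgb7 did the same, with 7.74, 7.87, 7.85 and 9.82 in IC and 9.61, 11.15, 9.90 and 7.89 in IT, as did Itgam, with 7.86, 7.82, 7.81 and 9.63 in IC against 9.66, 8.03, 9.61 and 8.24 in IT. For 24 of the 36 members array 4 had the opposite sign to the mean of the other 3.

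Without array 4 of the Ito and Kupffer cells, an alternative chosen after seeing the data, 5 members were called in Ito cells (beside 9.78% of all genes). In the TME Itgb7 was higher by 2.40 (SE 0.41, limma adjusted p = 0.00076), Itgb5, an alpha v partner, by 1.77 (SE 0.46, limma adjusted p = 0.019) and Lamb2 by 0.88 (SE 0.27, limma adjusted p = 0.048). Lama4 was lower, at -3.50 (SE 0.69, limma adjusted p = 0.0025), and Itgav, which pairs with beta 5, was lower, at -0.88 (SE 0.16, limma adjusted p = 0.0013). IT replicate 2 gave the extreme value of Itgb7, Itgb5, Lamb2 and Lama4. Within its group it also had the highest epithelial list level, carried by Krt8 and Krt18, and the highest stellate list level. Its macrophage and endothelial list levels were the lowest, and its Itga3 (7.43) and Lama1 (8.91) the highest. The neutrophil list crossed on array 4 as well, with 9.74, 9.66, 9.50 and 13.83 in IC and 13.73, 14.20, 13.03 and 9.91 in IT, and its part in the result was not tested.

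TME and control Kupffer cells differed in 0 called members, beside 0.357% of all genes, and 0 passed the unadjusted limma p under 0.05. Array 4 again opposed the others for 24 members. Itgb7 read 10.80, 10.76, 11.19 and 12.39 in KC and 12.18, 12.23, 12.24 and 10.58 in KT. Itgb3 read 13.79, 13.71, 13.61 and 12.84 in KC and 12.78, 12.74, 12.80 and 13.74 in KT, so both genes crossed on that array. Leaving array 4 out still gave 0 called members, beside 3.89% of all genes, and 9 then passed the unadjusted limma p under 0.05. KC replicate 3 stood apart for Itga4 (6.69 against 9.24 to 9.86), the main probe of Itga6 (12.46 against 10.23 to 10.64) and Lama2 (2.77 against 5.46 to 6.33).

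**Figure D5:**
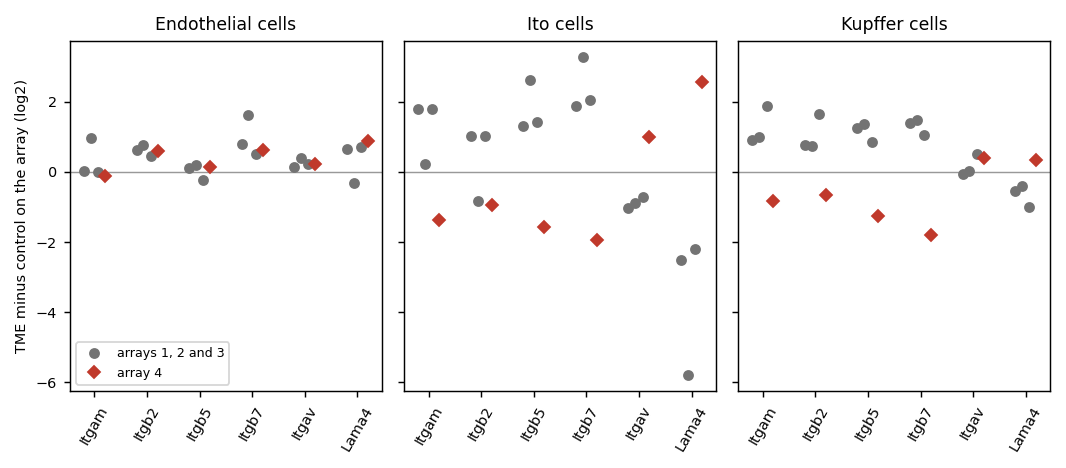
TME minus control difference (log2) on each array for 6 genes in endothelial, Ito and Kupffer cells, with array 4 as a red diamond and the other arrays as grey points. In Ito cells array 4 lies on the other side of 0 from the mean of the other arrays for all 6 genes, and in Kupffer cells for all but Itgav.

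No member was called for a difference in TME change between cell types. The counts were 0 of 36 between endothelial and Ito cells (0.124% of all genes called), 0 between endothelial and Kupffer cells (0.104%) and 0 between Ito and Kupffer cells (0% of all genes). By the unadjusted limma p under 0.05, 3, 1 and 3 members passed. Without array 4 of the Ito and Kupffer cells, Lama4 and Itgav were called between endothelial and Ito cells, beside 2.36% of all genes.

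The other genes of the adhesion machinery comprised 38 ligands, linkers and laminin partners. Between tumors and Kupffer cells 7 were called higher and 24 lower, with a median difference of -1.44 beside 0.10 over all genes. Of all protein-coding genes 34.9% were called higher and 27.8% lower. Among the 7, Npnt was not well above background in any sample of either side and has no measured difference. Among the 24, Ptk2 was well above background in 0 of 8 tumor and 2 of 8 Kupffer samples. Of the ligands, osteopontin (Spp1) and fibronectin (Fn1) were higher in tumors, by 6.24 and 5.13. Of the receptors' cell-bound ligands, Icam2 and Vcam1 were measured in all 16 samples and lower in tumors, at -6.34 and -4.00. Icam1 was not well above background in any tumor sample, and Kupffer cells exceeded tumors at least 28.6-fold. Of the linkers, zyxin (Zyx) differed by -4.63 and parvin alpha (Parva) by 2.53, both measured in all samples. Kindlin 3 (Fermt3), which belongs to blood cells, differed by -6.56 with 3 of 8 tumor samples well above background, and talin 2 (Tln2) was higher by 3.02 with 3 of 8 Kupffer samples well above background. Among laminin partners, perlecan (Hspg2) was higher by 1.57. Nidogen 2 (Nid2) and the Lama5 receptor Bcam were not well above background in any tumor sample, and were at least 4.35-fold and at least 8.61-fold higher in Kupffer cells.

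Between Ito and endothelial cells 6 of the 38 were called higher and 13 lower, with a median of -0.31 beside -0.02. Of all genes 9.62% were called higher and 15.1% lower. Laminin partners were lower in Ito cells in 5 of 8 cases, namely Nid1, Nid2, Hspg2, Dag1 and Cd151, from -0.55 to -1.53. Vitronectin (Vtn), made by hepatocytes, was higher by 3.94 and Fn1 by 1.85, alongside the hepatocyte list level given above, whose part was not tested. The TME comparisons called 1 of the 38 in endothelial cells, beside 1.63% of all genes. It was Apbb1ip, the adaptor that recruits talin (0.97, SE 0.24, limma adjusted p = 0.044). In Ito and Kupffer cells 0 were called, beside 0.243% and 0.357% of all genes. Between TP and TM 0 of the 38 were called, beside 1.92% of all genes higher and 0.917% lower.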

How the data were processed

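Of 16 two-colour Agilent arrays, each with 2 samples, the authors extracted spot intensities with Feature Extraction 10.7.3.1 and deposited a quantile-normalized table of signal values, which ran with the scanner's processed signals at r of at least 0.995 on each array. Here log2 of that table was fitted for all 32 samples with limma 3.58.1 (R 4.3.3), and p-values were adjusted by Benjamini-Hochberg over 55681 probes. Genes were called at an adjusted p under 0.05. Background and detection came from the flags in the deposited intensity files per the file headers. Alternatives changed the background correction (normexp, offset 50), scaling, filter, samples, thresholds and probe choice, and the fit was tested on simulated data. The members and the gene lists were chosen with earlier results of these data known. Genes were named by a rule, which takes up to 4 called members with the largest difference in each direction of each comparison. It also takes Itgb1, Itgb2 and members whose probes disagree. Values of other members, such as Itga8, Itgb5, Itgb7 and Lamb2, were given outside this rule. Of the 36 members 1 is not reported here by name, though counts over the members include it. The study gives 4 biological replicates per group. Probe sequences and mm9 positions came from the scanner files, and promoters from RefSeq. The number of samples, not read depth, limits precision on arrays.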

Additional observations from a re-analysis of the deposited data

Results flagged for a closer look

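In 13 of the 92 groups of 4 samples examined for the named genes, 1 sample lay far from the other 3 by Dixon's test, and chance marks about 1 in 20 groups. Replicate 4 of control Ito cells was such a sample for Itgam (9.63 against 7.81 to 7.86), Itgb2 (12.58 against 11.55 to 11.60), Itgb3 (12.31 against 13.05 to 13.12) and Lama4 (8.84 against 11.17 to 11.37). Replicate 4 of TME Kupffer cells was another, for Itgam (10.72 against 11.55 to 11.70), Itgb2 (13.20 against 13.80 to 13.89) and Itgb3 (13.74 against 12.74 to 12.80).

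Replicate 2 of TME endothelial cells stood apart for Itga1 (8.77 against 10.05 to 10.12) and Itgb3 (12.72 against 13.28 to 13.38). Control Kupffer replicate 3 was low for Itgb1 (11.61 against 12.58 to 12.72). Smaller gaps were those of Itga2 in TME endothelial replicate 1 (6.15 against at most 6.02), Itgam in CRC primary replicate 1 (6.87 against 6.45 to 6.49) and Itgb1 in control endothelial replicate 3 (12.99 against 12.88).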

How the results depend on the processing

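Between TME and control endothelial cells the count of called members was 0. It was 2 with either normexp setting and 1 with the 75th percentile or the filter on dim probes. It was 6 with only the groups compared and 3 with the methods' t-test, with a range of 0 to 2 over samples left out. The share of all genes called rose too, from 1.63% to 7.41% with only the groups compared. For Ito cells the range over samples left out was 0 to 5, and for the differences in TME change between cell types 0 to 2. Without array 4 of the Ito and Kupffer cells, the share of all genes called between TME and control Ito cells rose from 0.243% to 9.78%. Where no such share is given, here or with the replicate block, a change in count was not compared with all genes. For Kupffer cells 1 member was called once the difference between TP and TM was subtracted. Between TP and TM the count of 3 became 0 with only the groups compared or the methods' t-test and 1 at adjusted p under 0.001 and 4-fold, with 1 to 3 over samples left out. Without replicate 3 the 1 called member was Itgal, lower in TP, and none of the 3 calls was kept. The main probe of Itgal was not well above background in any tumor sample, so this call has no measured difference. Between Ito and endothelial cells the count of 12 became 1 at adjusted p under 0.001 and 4-fold and 5 at 2-fold, with 5 to 11 over samples left out. The lowest counts came without replicate 1 and without replicate 3. Between tumors and Kupffer cells the count of 33 became 21 at adjusted p under 0.001 and 4-fold, with 31 to 33 over samples left out. With the probe of the highest mean, Itga6 turned to 0.42 between Ito and endothelial cells and to -2.19 between tumors and Kupffer cells, and Itgam turned to 1.24 there, because another probe was read. Over the 23 named results, 318 values kept their direction and side of the threshold, 47 kept only their direction and 3 turned. With 75th percentile scaling the median of all genes moved from -0.02 to 0.15 between Ito and endothelial cells and from 0.10 to 0.50 between tumors and Kupffer cells, and the share of calls that were higher from 38.9 to 61.5% and from 55.6 to 64%.

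With the replicate block (the array as a random effect, correlation 0.078), 1 member was called between TME and control endothelial cells (Itga1), 4 between TP and TM, 9 between Ito and endothelial cells and 33 between tumors and Kupffer cells. The deviations of samples with the same number correlated at -0.64 to 0.40, so the numbers were not taken to pair samples beyond sharing an array. Except as given, the cause of a lost call was not tested. Signals near background limit the size of differences for dim probes.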
